A study of Mus musculus with 8 samples.

Results

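The SynCAM genes encode a small family of synaptic cell adhesion molecules. They were chosen by gene symbol, Cadm1, Cadm2, Cadm3 and Cadm4, and are 4 of the 56576 genes in the table of the series, in which no other symbol starts with Cadm. The study addressed the role of the receptor tyrosine kinase ErbB4 at the synapses of cortical interneurons. Ribosome-associated RNA was pulled down through HA-tagged Rpl22 from synaptosomes of the mouse cerebral cortex at postnatal day 15, and 4 control and 4 Erbb4 conditional mutant libraries were sequenced. Every mouse carried Lhx6-Cre and Rpl22HA/HA. Controls were Erbb4+/+ and conditional mutants were Erbb4F/F. Lhx6-Cre acts in early postmitotic MGE/POA-derived interneurons, so that the tag and the deletion covered both PV+ and SST+ cells. Replicates were different brains from different litters, and p-values measure the spread between these libraries. Between 51010687 and 80226984 reads per library fell on genes, and all values below are normalized counts unless stated otherwise.

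SynCAMs are immunoglobulin superfamily proteins of the nectin-like group that bind each other across the synaptic cleft. Cadm1 pairs preferentially with Cadm2, and Cadm3 with Cadm4. Their short cytoplasmic tails carry a motif for 4.1 band proteins and end in a motif for PDZ domain proteins such as Cask, and Cadm1 is best known as an organizer of excitatory synapses.

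The ends of the 4 coding sequences are shown because they encode the tail shared by the family, by which the PDZ partners described further on bind. Capitals mark the last 12 coding bases, and the stop codon follows in lower case.
Cadm1: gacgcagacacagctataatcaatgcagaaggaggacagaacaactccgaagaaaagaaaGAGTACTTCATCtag
Cadm2: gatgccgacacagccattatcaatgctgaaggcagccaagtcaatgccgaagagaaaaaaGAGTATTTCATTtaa
Cadm3: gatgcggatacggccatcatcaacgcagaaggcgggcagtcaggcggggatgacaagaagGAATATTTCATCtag
Cadm4: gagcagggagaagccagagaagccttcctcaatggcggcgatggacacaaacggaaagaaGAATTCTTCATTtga
In mm10 and the GENCODE annotation these stretches lie within the last coding exon of each gene, at chr9:47850316-47850390 on the + strand for Cadm1, at chr16:66663093-66663167 on the - strand for Cadm2, at chr1:173337021-173337095 on the - strand for Cadm3 and at chr7:24503547-24503621 on the + strand for Cadm4. The 12 capital bases matched at 10 of 12 positions between any pair of Cadm1, Cadm2 and Cadm3, and at 9 of 12 between Cadm4 and each of the others. Upstream of that ending Cadm4 diverged. Over the last 72 coding bases, set side by side without gaps, it shared 26 to 29 bases with each of the others, which shared 49 to 55 among themselves. Whole coding sequences were identical at 56.25% (Cadm3 and Cadm4) to 65.4% (Cadm2 and Cadm3) of aligned bases. The longest run of identical bases between the transcripts of any pair was 23, in Cadm1 and Cadm4, and 13 at most in the other pairs.

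Erbb4, the targeted gene (chromosome 1, 68032186 to 69108060), was measured at 1640, 5377, 4306 and 3034 in control replicates 1, 3, 4 and 5, and at 1711, 1648, 1233 and 1048 in mutant replicates 2, 3, 4 and 5. The library labelled control replicate 1 lay within the range of the mutants and so went against its label, while the other 3 controls lay above every mutant. These values are for the whole gene and do not separate the floxed part from the rest. With all libraries the log2 fold change of Erbb4 was -1.25, with a standard error of 0.34, an unadjusted limma p of 0.0041 that was 0.58 after adjustment, and an exact permutation p of 0.086. Without the library labelled control replicate 1 it was -1.58. That library also stood apart in other ways. It carried a weight of 0.851 on the first component of the variation within genotypes, which held 31.3% of that variation, and its summed oligodendrocyte markers reached 663150 against 226229 to 355622 in the other controls. Rpl22, the tagged gene, was highest in it, at 1358 against 400 to 806 elsewhere. Results for the SynCAM genes are therefore given with and without it.

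Cadm1 (GSMG0039483, chromosome 9, 47530170 to 47853391) was measured at 24398, 27407, 13850 and 10476 in control replicates 1, 3, 4 and 5, and at 15296, 14856, 7463 and 7027 in mutant replicates 2, 3, 4 and 5. Each genotype held a high and a low pair of libraries, the low pair of controls lay below the high pair of mutants, and the groups overlapped. Cadm2 (GSMG0015903, chromosome 16, 66655418 to 67620908), the preferred partner of Cadm1, was measured at 15968, 20290, 16219 and 9954 in the controls, in the same order of replicates, against 15280, 15903, 9952 and 8697 in the mutants. Control replicates 1, 3 and 4 lay above every mutant, replicates 1 and 4 by little, while control replicate 5 lay below mutant replicates 2 and 3.

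Cadm3 (GSMG0002484, chromosome 1, 173334254 to 173367695), the member whose known partner in the family is Cadm4, was measured at 2378, 2395, 779 and 894 in control replicates 1, 3, 4 and 5, and at 1042, 1885, 649 and 610 in mutant replicates 2, 3, 4 and 5. Control replicates 1 and 3 were high, control replicates 4 and 5 lay below 2 of the mutants, and the spread within each genotype was wide. Cadm4 (GSMG0034151, chromosome 7, 24482021 to 24504533), also known for its place in contacts between axons and myelinating glia, was measured at 7220, 7433, 4234 and 3618 in the controls, against 3040, 3807, 2254 and 2125 in the mutants. Cadm4 came closest to a separation of the genotypes, since control replicate 5 and mutant replicate 3 were the sole pair of libraries out of order.

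**Figure D1:**
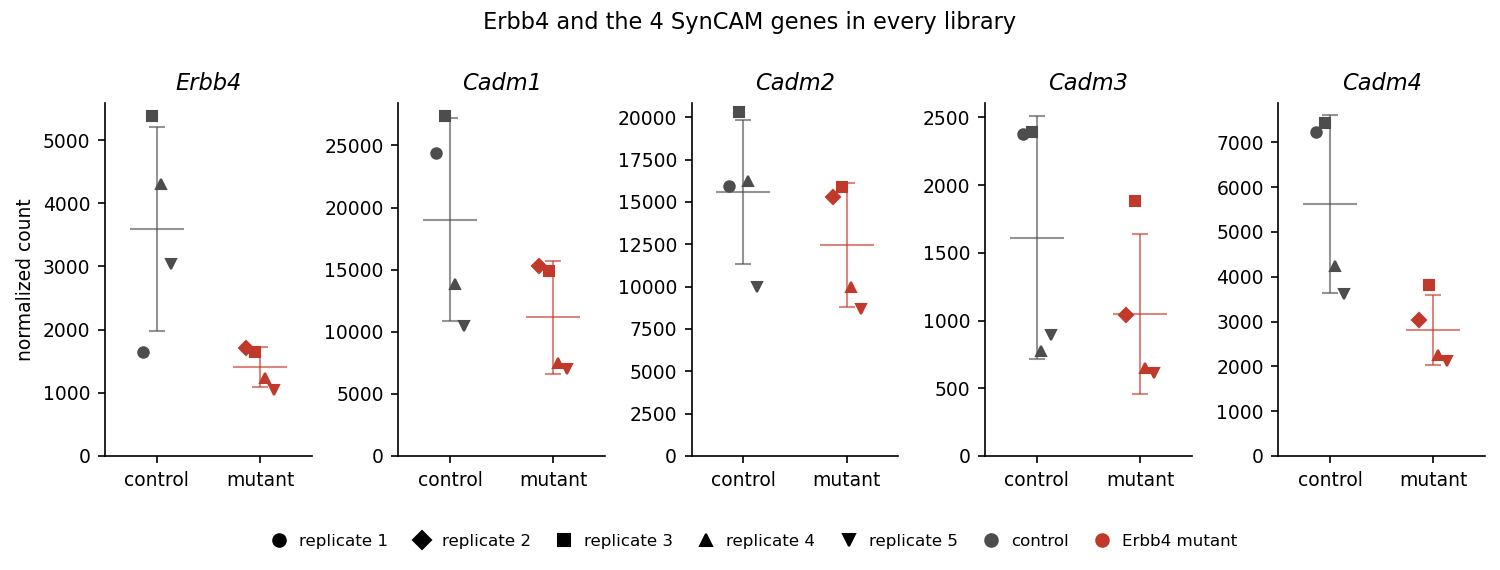
Normalized counts (y axes, from 0) of Erbb4 and the 4 SynCAM genes in each control and Erbb4 mutant library, with bars for the mean ± SD (n = 4 per genotype) and marker shapes for replicate numbers. Erbb4 in the library labelled control replicate 1 (1640) lies among the mutants (1048 to 1711), and mutant Cadm4 (2125 to 3807) overlaps control Cadm4 (3618 to 7433) at a single library on each side.

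The question put to each gene was whether its level in synaptosomes differed between Erbb4 conditional mutants and controls. Control libraries averaged 5626 ± 1981 for Cadm4 and mutant libraries 2806 ± 780 (SD, n = 4 each). On the scale of log2(normalized count + 1) the difference was -0.97 (standard error 0.29, 95% interval -1.61 to -0.33), a 1.96-fold lower level, with an unadjusted limma p of 0.0064 and an exact permutation p of 0.057. A gene was called here at an unadjusted p of at most 0.05 together with a fold change of at least 1.5, and Cadm4 was the 1 of 4 SynCAM genes called, while 7.15% of the 31171 genes tested were called in either direction and 3.17% were called lower. At an adjusted p under 0.05, reached by 0.0449% of genes, no SynCAM gene was called, and the adjusted p of Cadm4 was 0.58. No SynCAM gene had all mutants below all controls, an arrangement found in 2.17% of genes. Without the library labelled control replicate 1 the log2 fold change of Cadm4 was -0.83, and it was called then and also with each other library left out. With the mean of MGE interneuron markers as a covariate it was -0.48 and not called. All 11 of those markers had a log2 fold change below 0 and 2 were called lower, as given further on. The exact permutation test was two-sided, used no other gene and could not give less than 0.029 with 4 libraries against 4.

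Control libraries averaged 19033 ± 8144 for Cadm1 and mutant libraries 11161 ± 4528 (SD, n = 4 each). The log2 fold change of -0.76 (standard error 0.37, 95% interval -1.57 to 0.061) was not called, with an unadjusted limma p of 0.067 and an exact permutation p of 0.17. Cadm1 lay close to the threshold. It was called with DESeq2 (-0.74) and with library weights (-0.80), and also without control replicate 5 (-1.01), mutant replicate 2 (-0.94) or mutant replicate 3 (-0.93). Without the library labelled control replicate 1 it was -0.60 and not called. Nor was it called when scaled to total reads (-0.57) or without control replicate 3 (-0.54). With the mean of MGE interneuron markers as a covariate it was -0.032 and not called.

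Cadm2 and Cadm3 differed between genotypes by less than their spread between libraries. For Cadm2 controls averaged 15608 ± 4258 and mutants 12458 ± 3663 (SD, n = 4 each), a log2 fold change of -0.33 (95% interval -0.94 to 0.29, exact permutation p = 0.17). For Cadm3 controls averaged 1611 ± 896 and mutants 1047 ± 592 (SD, n = 4 each), a log2 fold change of -0.59 (95% interval -1.61 to 0.44, exact permutation p = 0.29). Both intervals include no difference, and that of Cadm3 also includes a fall as large as that of Cadm4. Without the library labelled control replicate 1 the values were -0.30 for Cadm2 and -0.34 for Cadm3.

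All 4 log2 fold changes were below 0, with a median of -0.671, against a median of 0.055 over all genes tested, of which 46.6% were below 0. Among the 8824 genes with a mean of at least 1000 in either genotype, as all 4 SynCAM genes had, the median was -0.045. Of these 8824 genes 53.7% were below 0 and 6.36% were called lower. Summed over the family, mutants had 65.6% of the control mean. When libraries were scaled to total reads, the median of all genes moved to 0.232, and the SynCAM genes stood at -0.57, -0.14, -0.40 and -0.79 in order from Cadm1 to Cadm4, below 0 as before, and Cadm4 was still called. With the mean of MGE interneuron markers as a covariate 2 of 4 were below 0.

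**Figure D2:**
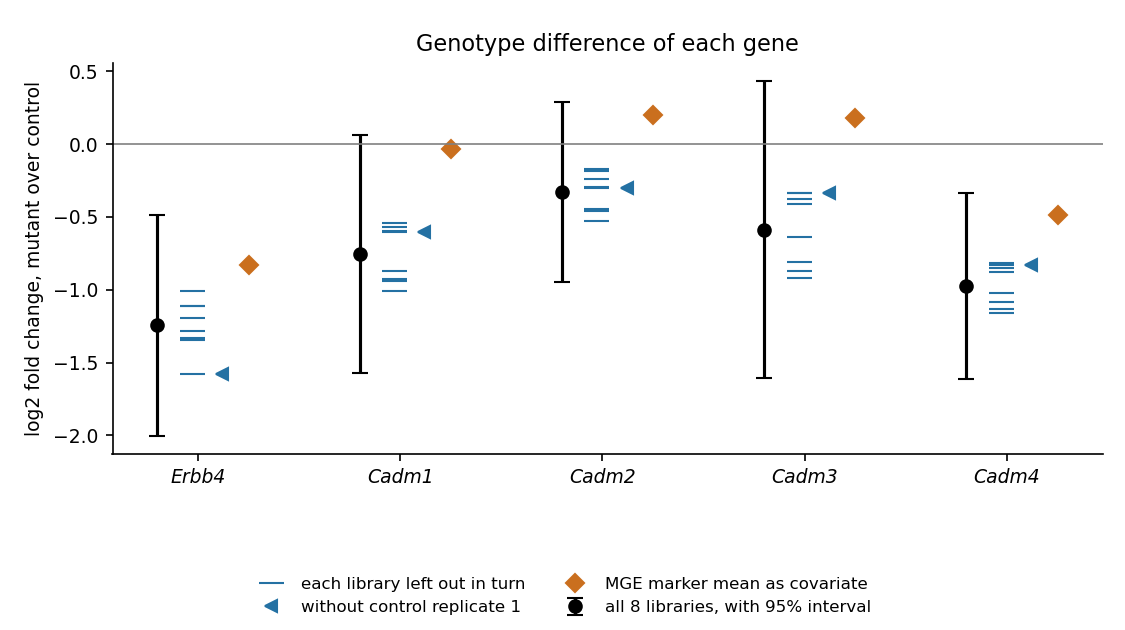
Log2 fold change of mutants over controls (y axis) for Erbb4 and the SynCAM genes with all 8 libraries (black, with 95% interval), with each library left out in turn (dashes), without the library labelled control replicate 1 (triangles) and with the mean of MGE interneuron markers as a covariate (diamonds). The interval of Cadm4 (-1.61 to -0.33) stays below 0 and those of Cadm1, Cadm2 and Cadm3 cross it, and with the covariate Cadm1 lies at -0.032 and Cadm2 and Cadm3 lie above 0.

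A fall called in one paralog and not in another does not show that they differ, so the ratio of each of the 6 pairs was formed within every library, which removes the scaling of the library. The log2 ratio of Cadm2 to Cadm4 was 1.15, 1.45, 1.94 and 1.46 in control replicates 1, 3, 4 and 5, and 2.33, 2.06, 2.14 and 2.03 in mutant replicates 2, 3, 4 and 5. Every mutant lay above every control, and the mean went from 1.498 ± 0.327 in controls to 2.14 ± 0.133 in mutants (SD, n = 4 each). The difference of 0.64 had an exact permutation p of 0.029, the smallest this design allows, and 0.17 after Benjamini-Hochberg adjustment over the 6 pairs. Cadm4 thus made up less of the pair in mutants, in 4 of 4 libraries, without passing the adjusted threshold. Without the library labelled control replicate 1 the difference was 0.53, and its p of 0.057 was again the smallest that 7 libraries allow.

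The other 5 ratios overlapped between genotypes. The difference was -0.43 for Cadm1 to Cadm2 (exact permutation p = 0.11), 0.39 for Cadm3 to Cadm4 (exact permutation p = 0.23) and 0.22 for Cadm1 to Cadm4 (exact permutation p = 0.23). It was -0.17 for Cadm1 to Cadm3 (exact permutation p = 0.49) and 0.26 for Cadm2 to Cadm3 (exact permutation p = 0.63), where the libraries of each genotype spread by 0.35 to 0.70 (SD, n = 4). With the library labelled control replicate 1 left out, the differences were -0.30 for Cadm1 to Cadm2, 0.49 for Cadm3 to Cadm4, 0.23 for Cadm1 to Cadm4, -0.26 for Cadm1 to Cadm3 and 0.034 for Cadm2 to Cadm3. With each library left out in turn, the difference ran from -0.58 to -0.30 for Cadm1 to Cadm2. For Cadm1 to Cadm3 it ran from -0.30 to -0.00035, and for Cadm1 to Cadm4 from 0.085 to 0.29. For Cadm2 to Cadm3 it ran from 0.034 to 0.58, and for Cadm3 to Cadm4 from 0.21 to 0.49. The fall of Cadm4 was therefore not distinguished from the smaller differences of Cadm1 and Cadm3.

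**Figure D3:**
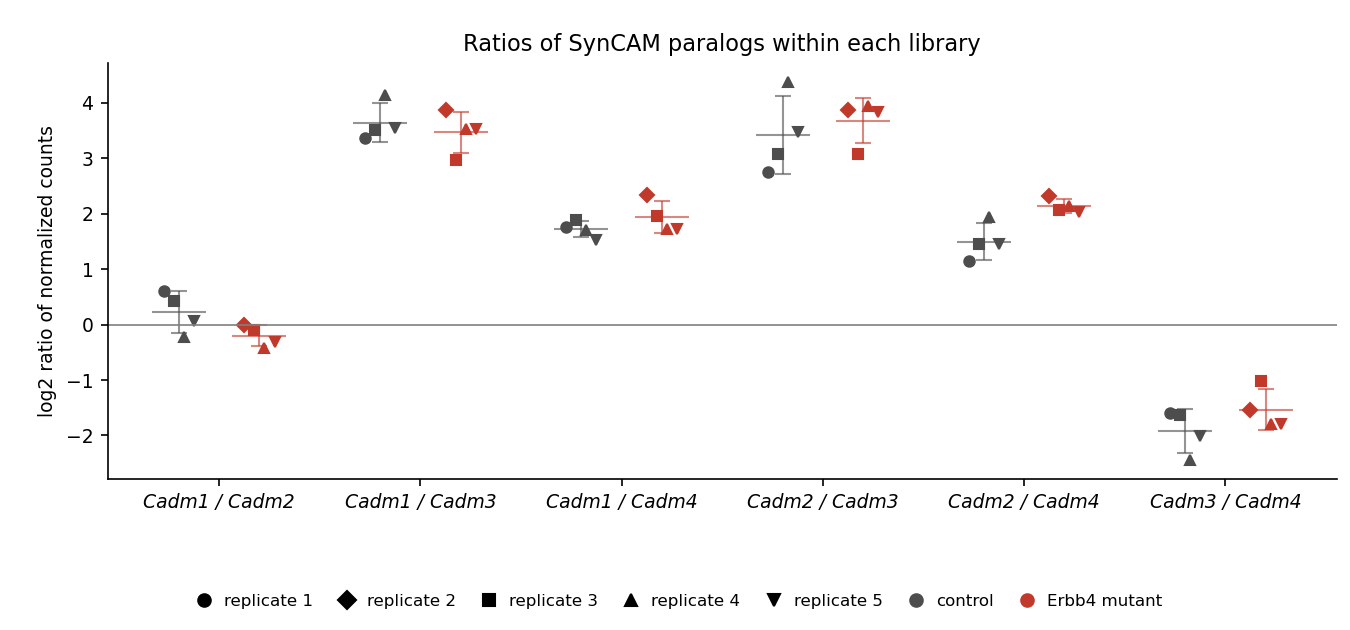
Log2 ratio of normalized counts (y axis) of each pair of SynCAM paralogs within each library, by genotype, with the mean ± SD (n = 4) and marker shapes for replicate numbers. For Cadm2 and Cadm4 the controls lie between 1.15 and 1.94 and the mutants between 2.03 and 2.33, and the genotypes overlap in the other 5 pairs.

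Levels were compared between paralogs as normalized counts per kilobase of the longest annotated transcript. In controls Cadm1 stood at 3993 ± 1708 per kilobase (SD, n = 4), Cadm4 at 2603 ± 917, Cadm2 at 1632 ± 445 and Cadm3 at 313 ± 174. In mutants the order began with Cadm1 at 2341 ± 950 per kilobase (SD, n = 4), Cadm2 and Cadm4 were at 1303 ± 383 and 1299 ± 361, and Cadm3 was at 203 ± 115. Cadm3 was the lowest member in 8 of 8 libraries. It lay 6.32-fold below Cadm2, the nearest member with this length, and 7.92-fold below Cadm4 (exact sign-flip permutation p = 0.0078 for each, the smallest possible). The fold against Cadm4 was 3.68 with coding length, 3.71 with bases shared by complete coding transcripts and 11.1 with all exons joined. The fold against Cadm2 was 11.6, 10.6 and 8.66 in the same order. Cadm1 was above each of the others in 8 of 8 libraries, whereas Cadm4 was above Cadm2, its neighbour in this order, in 4 of 4 controls and 3 of 4 mutants. Over all 8 libraries, which pool genotypes whose values of this ratio did not overlap, the exact sign-flip permutation p of that pair was 0.055. This order rested on the length used, except for the place of Cadm3. With coding length, Cadm1 and Cadm2 differed by -0.11 on the log2 scale over both genotypes, with Cadm1 at 13384 against 11960 for Cadm2 in controls and at 7849 against 9546 in mutants, and Cadm2 lay above Cadm4 by 1.66, and with all exons joined Cadm4 lay above Cadm1, whose log2 ratio to it was -0.44. The share of Cadm4 in the summed level per kilobase was 30.7% ± 1.84 in controls against 25.8% ± 2.84 in mutants (SD, n = 4 each), and that of Cadm2 was 19.9% ± 4.07 against 25.7% ± 1.52. These shares moved with the length too. With coding length Cadm4 had 15.4% in controls against 12.0% in mutants and Cadm2 39.1% against 46.9%, with all exons joined Cadm4 had 41.8% against 34.9%, and with bases shared by complete coding transcripts, few in Cadm1, it had 1.76% against 1.51%.

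**Figure D4:**
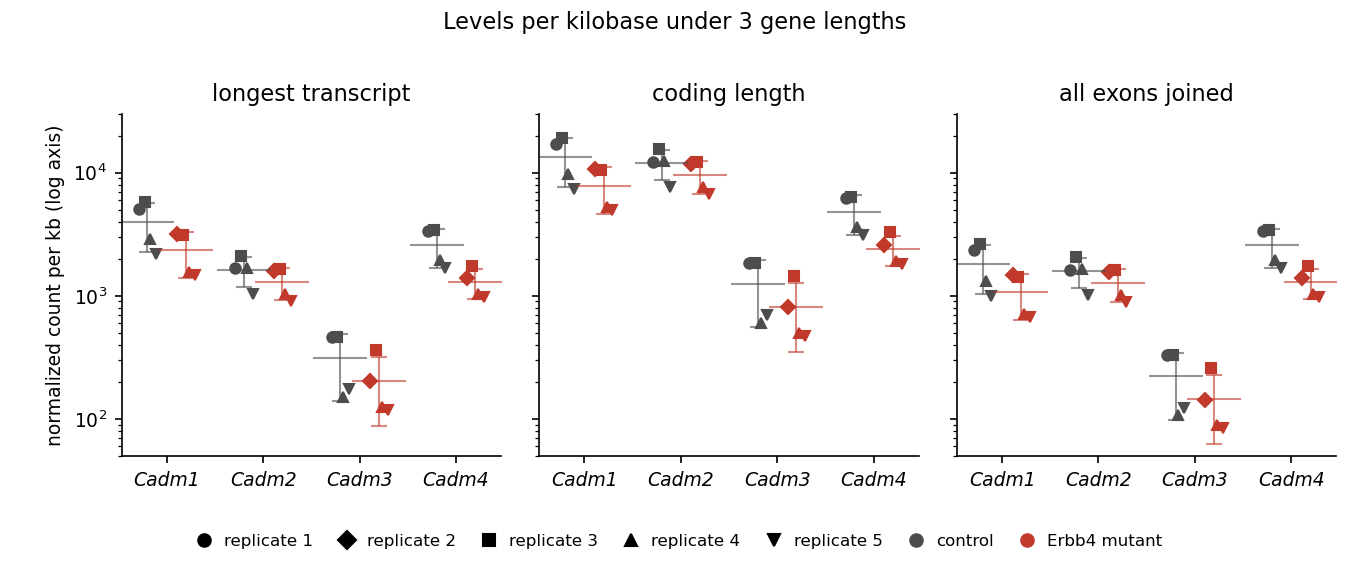
Normalized counts per kilobase (y axes, logarithmic) of the 4 SynCAM genes in each library under 3 definitions of gene length, with the mean ± SD (n = 4 per genotype). Cadm3 is lowest in every panel, whereas control Cadm2 moves from 1632 per kilobase of the longest transcript to 11960 per kilobase of coding length, next to Cadm1 at 13384.

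Set among 13 neuroligins, neurexins, calsyntenins and leucine-rich repeat transmembrane proteins, which belong to other adhesion families of excitatory and inhibitory synapses, Cadm1 ranked 6 of 17 genes by control level per kilobase of the longest transcript, Cadm4 ranked 7, Cadm2 ranked 11 and Cadm3 ranked 15. With coding length the ranks of Cadm1, Cadm2, Cadm3 and Cadm4 were 3, 4, 14 and 11. None of the 13 comparison genes was called, and all 13 had a log2 fold change below 0, as had 46.6% of all genes tested. The median of the 13 was -0.281, and -0.507 without the library labelled control replicate 1. When libraries were scaled to total reads 9 of 13 were below 0 (median -0.097), and with the mean of MGE interneuron markers as a covariate 4 of 13 (median 0.087). Lrrtm3, a partner of neurexins, came nearest by unadjusted limma p (0.012). It averaged 8743 ± 1061 in controls against 6057 ± 643 in mutants (SD, n = 4 each). All its mutants lay below all its controls, as they did for Lrrtm1 (-0.37), but both fold changes were under 1.5. Larger differences were measured for Clstn3 (-0.71), Clstn2 (-0.68) and Nrxn3 (-0.58), with unadjusted limma p of 0.092, 0.075 and 0.12.

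The genes most like each SynCAM gene over the 8 libraries were taken by Pearson correlation of log2 values among 10118 genes with a mean of at least 500, as a description. For Cadm1 they were Cd81, Tmem147 and Rnf187 (r = 0.997 for each). For Cadm2 they were Gabrg3, Tmtc4 and Slc1a6 (r = 0.991, 0.9901 and 0.989). For Cadm3 they were 1500009C09Rik, Msi2 and Gdi2 (r = 0.996, 0.981 and 0.981), and for Cadm4 Hspbp1 and Nipsnap1 (r = 0.996 and 0.994). No SynCAM gene was among the 3 nearest genes of another, and 8.23% of those genes were closer to Cadm1 than Cadm4 was (r = 0.942). All 8 points share library preparation and differ in marker content, as described below for interneurons.

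The loci of Cadm1 and Cadm2 also held other entries of the table. Within the span of Cadm2 there were 27, of which 26 touched no annotated exon of Cadm2 and 1 had a symbol, the antisense gene 1700010K23Rik. Their summed counts were 12159, 12610, 10725 and 10906 in control replicates 1, 3, 4 and 5, and 15479, 15558, 8906 and 8373 in mutant replicates 2, 3, 4 and 5. The sum amounted to between 62.1% and 110% of the value of Cadm2 itself and did not separate the genotypes (exact permutation p = 1). Within the span of Cadm1 there were 9 such entries with a sum of 5.34% to 13.8% of Cadm1, and there were none within Cadm3 or Cadm4. Strand use in the counting was not stated, so that reads of Cadm2 and of its antisense gene cannot be told apart where they overlap.

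The partners of SynCAMs were examined through lists covering nectin-like relatives, 4.1 band proteins, PDZ and MAGUK partners, enzymes that cleave or sialylate the ectodomain, and ErbB receptors. Of all genes tested, 3.98% were called higher and 3.17% lower, and 46.6% had a log2 fold change below 0. Of the 29 genes tested on these 5 lists, 2 were called lower, Lin7b and the targeted gene Erbb4 itself. Another 4 of the 29 were called higher, and the median log2 fold change of the 29 genes was -0.034. Among these genes 1 was called in each direction, Erbb4 and Erbb2, without the library labelled control replicate 1. When scaled to total reads, 2670 of the 31171 genes tested were called, of which 415 were lower. Under that scaling 2 of 4 genes for 4.1 band proteins and 3 of 4 proteases and sialyltransferases were called higher. Among the ErbB receptors 1 was then called in each direction, and no gene on the other lists was called. None of the 5 nectins and nectin-like relatives tested was called, and all 5 were below 0, from -0.56 in Nectin2, their most abundant gene, to -0.10 in Nectin1, and 4 of 5 were below 0 when scaled to total reads. With the mean of MGE interneuron markers as a covariate 2 of 5 were below 0, with 1 called lower. Crtam, a lymphocyte receptor for Cadm1, was too low to be tested.

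Among cytoplasmic partners, 1 of 4 genes for 4.1 band proteins was called higher. This was Epb41l2, which averaged 4893 ± 1469 in controls against 7943 ± 1602 in mutants (SD, n = 4 each), with a log2 fold change of 0.73, whereas Epb41l3, the most abundant of the list, was -0.25. Of 12 PDZ and MAGUK partners, Lin7b, a small scaffold that assembles with Cask, was called lower (-0.61, and -0.42 and not called when scaled to total reads), and Cask itself was 0.10. The summed level of these 12 was 101% of controls in mutants. Dlg3, their most abundant gene, was -0.034.

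Adam10, a sheddase of many adhesion proteins and the most abundant gene of its list, was called higher at 6687 ± 266 in mutants against 4525 ± 1815 in controls (SD, n = 4 each), a log2 fold change of 0.68, and Adam17 was called higher with 0.59. All mutants lay above all controls for Adam10, as for 2.76% of all genes tested. Among the receptors, Erbb2, a partner with which ErbB4 forms dimers, was measured at 229, 554, 604 and 725 in control replicates 1, 3, 4 and 5, and at 742 to 1370 in mutants. All mutants were again above all controls, and its log2 fold change of 1.11 was 0.75 without the library labelled control replicate 1, in which it was lowest. Without that library Erbb2 and Erbb4 were called as before, and Epb41l2 (0.51), Adam10 (0.34), Adam17 (0.45) and Lin7b (-0.58) were not.

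Markers of cell types moved between the same libraries. Of all genes tested, 46.6% had a log2 fold change below 0 and 3.17% were called lower. When scaled to total reads, 415 of the 31171 genes were called lower. All 11 MGE interneuron markers had a log2 fold change below 0, with a median of -0.69. Of these, 2 were called lower, Gad1 and Gad2, the enzymes of GABA synthesis. When scaled to total reads 10 of the 11 were below 0 and none was called, Gad1 (-0.86) and Gad2 (-0.74) included. Their summed level was 74867, 126093, 65012 and 36769 in control replicates 1, 3, 4 and 5, and 58400, 61930, 26051 and 19972 in mutant replicates 2, 3, 4 and 5, with Nxph1 the most abundant. Control replicates 1 and 3 and mutant replicates 2 and 3 were the higher pair of their genotype, as they were for Cadm1. All 7 PV interneuron markers were below 0 and 4 were called lower (median -1.19), as when scaled to total reads (median -1.002). Their sum, with Cplx1 the most abundant, was 94778, 159183, 68566 and 34186 in the controls, against 53946, 53906, 22607 and 18368 in the mutants. The SST list had 6 of 7 below 0 with 1 called, under both scalings, and its sum, with Sst the most abundant, ran from 56900 to 497007 in controls and from 17727 to 199190 in mutants. Without the library labelled control replicate 1, all 11 MGE and all 7 PV markers were again below 0, with medians of -0.702 and -1.10 and with 0 and 2 called, and all 7 SST markers were below 0 with 2 called. No marker of any list was at 0 in all libraries. Fewer interneurons or interneuron synapses in a sample and less RNA in each cannot be told apart in these bulk data.

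With the mean of the MGE interneuron markers as a covariate, the log2 fold change of Cadm4 was -0.48 and no SynCAM gene was called. Cadm1 was then -0.032, and Cadm2 and Cadm3 changed direction, to 0.20 and 0.18. Erbb4 was still called (-0.83). Of the partners, Erbb2, Epb41l2 and Lin7b were not called with it, and 3 of 4 ectodomain proteases and sialyltransferases were called higher, against 2 of 4 without it. The covariate itself differed between genotypes, so that a difference in interneuron RNA and a genotype difference of the SynCAM genes cannot be told apart by this fit.

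RNA of other cells was also present, in libraries meant to be enriched for interneuron ribosomes. Of all 31171 genes tested, 3.17% were called lower and 3.98% higher. When scaled to total reads 2670 were called, of which 415 were lower. Slc17a7, the vesicular glutamate transporter of excitatory neurons and the most abundant gene of its list, ranged from 92440 to 122229 in controls and from 87106 to 109409 in mutants, and the summed excitatory markers were 85.3% of controls in mutants, with 1 of 9 called in each direction, and none called lower when scaled to total reads. All 10 oligodendrocyte markers, led by Mbp, were below 0 and 3 were called lower, against 9 of 10 below 0 and none called when scaled to total reads. Their sum was 663150, 355622, 226229 and 319162 in the controls, against 227874, 196800, 248916 and 282524 in the mutants, and without the library labelled control replicate 1 none of the 10 was called. Of the 10 endothelial and mural markers 4 were called higher (1 without that library, 6 when scaled to total reads and 3 with the MGE covariate) and 2 were below 0, among them Cldn5, the most abundant (-0.13), with sums of 200650, 332968, 249564 and 206292 in controls against 308039 to 325286 in mutants. No astrocyte marker (10, led by Aldoc, sum 83.5% of controls), microglial marker (10, led by Csf1r, 76.5%), oligodendrocyte precursor marker (5, led by Olig1, 93.4%) or CGE interneuron marker (7 tested, led by Lamp5, 64.4%) was called. The library labelled control replicate 1 had the highest control sum of CGE interneuron markers (20426 against 8972 to 12437), of microglial markers (53208 against 26620 to 45661) and of astrocyte markers (243593 against 139182 to 193091). Without it the median log2 fold change went from -0.597 to -0.262 for CGE interneuron markers, from -0.444 to -0.232 for microglial markers, from -0.111 to -0.00099 for astrocyte markers and from 0.111 to -0.180 for oligodendrocyte precursor markers, and none was called. The part of any of these cell types in the SynCAM results was not tested beyond the covariate above.

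**Figure D5:**
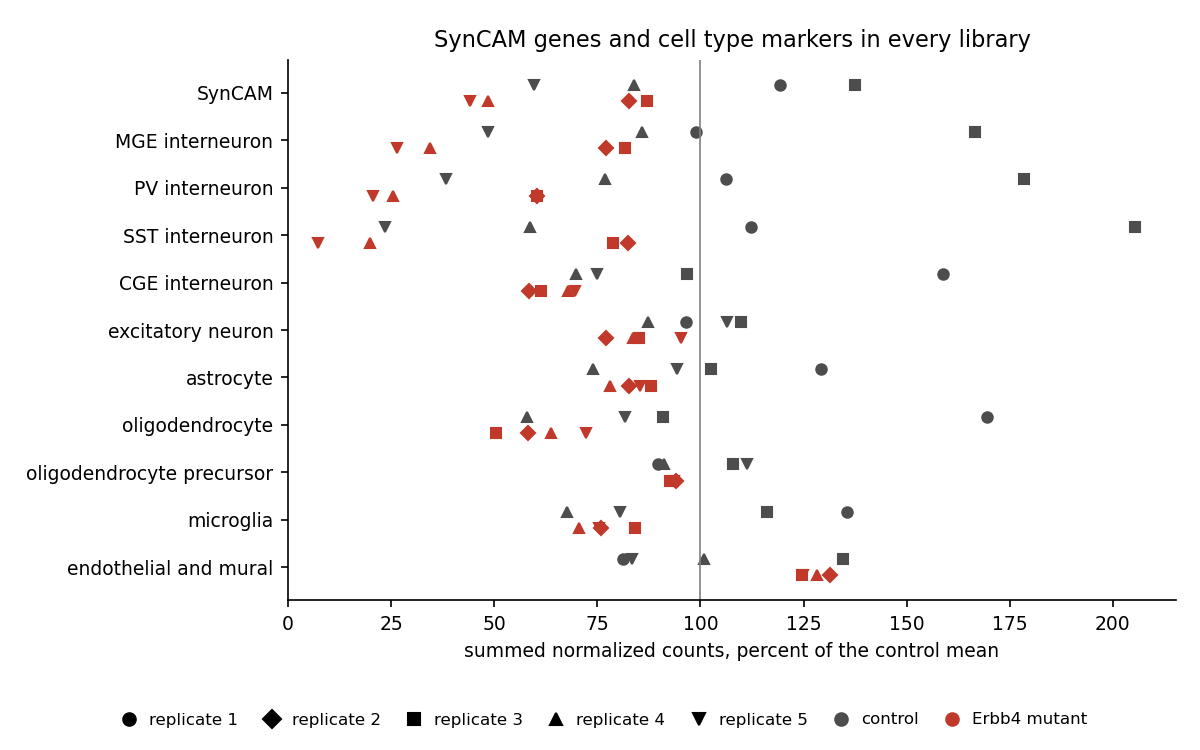
Summed normalized counts of the SynCAM genes and of each cell type marker list in every library, as a percentage of the control mean of that list (x axis, from 0), by genotype and replicate number. The mutant mean is 65.6% of controls for the SynCAM genes, 54.9% for MGE interneuron markers, 41.7% for PV interneuron markers and 127% for endothelial and mural markers.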

How the data were processed

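Ribosome-associated RNA from cortical synaptosomes was sequenced in 4 control and 4 Erbb4 conditional mutant libraries. The authors aligned reads with STAR 2.4.0 (version from the submitters' processing notes) to mm10, took the counts over the constitutive parts of Mouse Fast DB genes and normalized them with DESeq2. The deposited values are therefore a signal, gene counts divided by a size factor per library. Every value was a whole multiple of the step of its library (100% within a tolerance of 0.01), which gave back the reads and the depth, 51010687 to 80226984 per library. Regions of genes used by all isoforms were counted, so that isoforms are not separated.

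Genes with a mean of at least 10 in either genotype (31171) were tested with limma 3.58.1 (trend) in R 4.3.3 on log2(normalized count + 1), with Benjamini-Hochberg adjustment over all of them. Calls used the p and fold change thresholds of the study, which applied them to DESeq2 p-values and to genes passing its own expression filter. Single values and within-library ratios were tested by two-sided exact permutation in SciPy 1.17.1, and the order of levels by exact sign flips over 8 libraries. Coding sequences were aligned with Biopython 1.88. Alternatives, including edgeR 4.0.16 and DESeq2 1.42.0 on the recovered reads, are given in the closing section. The fit was tested on simulated data. The members and the gene lists were chosen with earlier results of these data known. Named genes were the members, Erbb4, Rpl22 and Lhx6, list genes that were called or most abundant, and the 3 genes most correlated with each member, of which 1 is not reported here, like 1 of the lists. Nectin1, Lrrtm1, Lrrtm3, Clstn2, Clstn3, Nrxn3, Cask, Crtam and the antisense gene within Cadm2 were named after their values were seen. Lhx6 averaged 1223 ± 445 in controls against 743 ± 220 in mutants (SD, n = 4 each) and was not called. Libraries were sequenced in batches that no label assigns, and the part of batch was not tested.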

Additional observations from a re-analysis of the deposited data

Results flagged for a closer look

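The log2 ratio of Cadm2 to Cadm3 in mutant replicate 3 was 3.08, far from the 3.83 to 3.94 of the other mutants, and Cadm3 was highest among mutants in that library. The summed PDZ and MAGUK partners in the library labelled control replicate 1 were 34252, against 40675 to 41999 in the other controls. Over the 84 groups of 4 libraries looked at, chance would set apart about 4.2, and these were 2.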

How the results depend on the processing

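Erbb4 was called under all 12 alternatives and with each of the 8 libraries left out, and Cadm4 under 11 of 12 and all 8. The exception for Cadm4 was the MGE marker mean as a covariate (-0.48), under which Cadm2 (0.20) and Cadm3 (0.18) changed direction. Cadm1, not called with all libraries, was called with DESeq2 (-0.74), library weights (-0.80) and the first residual component as a covariate (-0.76, chosen after seeing the data). With a library left out, log2 fold changes ran from -1.01 to -0.54 for Cadm1, -0.53 to -0.17 for Cadm2, -0.92 to -0.33 for Cadm3, -1.16 to -0.81 for Cadm4 and -1.58 to -1.01 for Erbb4. The ratio of Cadm2 to Cadm4 differed by 0.53 to 0.79, where 7 libraries cannot reach the threshold. Of 2229 genes called, 988 were lower, against 415 of 2670 when scaled to total reads. The count was 3630 with library weights (1633 lower), 3827 with the residual component (1396 lower), 2279 with edgeR (1206 lower) and 2834 with DESeq2 (1573 lower). It was 1194 to 3767 with a library left out. The direction of most called genes thus depended on the setting. The 14 genes at an adjusted p under 0.05 became 7 with a mean of at least 100, 68 with DESeq2, 24 with library weights, 9 with the MGE covariate, 33 with the residual component, 10 with edgeR and 4 to 12 with a library left out. The log2 ratio per length, over both genotypes, changed direction for Cadm1 to Cadm2 with coding length (-0.11) and all exons joined (-0.081), where the mean of Cadm1 stayed above that of Cadm2 in controls (1823 against 1591 per kilobase with all exons joined) and not in mutants (1069 against 1270), for Cadm1 to Cadm4 with all exons joined (-0.44), and for Cadm2 to Cadm4 with coding length (1.66) and with bases shared by complete coding transcripts (1.51, chosen after seeing the data), and passed the threshold for the last pair with all exons joined (-0.36). The shared bases came to 133 for Cadm1, too few to place it. The causes of these changes were not tested.

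The genotypes share replicate numbers 3, 4 and 5, and libraries of the same number had correlations of 0.10, 0.098 and 0.082 in their deviations, with control replicate 5 closer to mutant replicate 4 (0.085), so the numbers were not taken as pairs. Control replicate 3 also correlated with mutant replicate 2 (0.083) and control replicate 4 with mutant replicate 5 (0.082), the other values of control replicates 3, 4 and 5 ran from -0.115 to -0.062 and those of control replicate 1 from -0.041 to 0.034. No label gives sets of libraries, so no such set was used as a block, and the part of such sets was not tested. As 1 of the 12 alternatives, the replicate number was still fitted as a block. Number 1 occurs in controls alone and number 2 in mutants alone. Control replicate 1 and mutant replicate 2 therefore did not bear on the genotype difference of that fit, which came from numbers 3, 4 and 5. With this replicate block, 3164 genes were called and 0 at an adjusted p under 0.05 (limma, with 10 from edgeR and 68 from DESeq2 without the block). Cadm1 was then -0.78 and called.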
